A study of Mus musculus with 32 samples.

Results

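Folate-bound one-carbon units are carried by a pair of parallel enzyme sets, one in mitochondria and one in the cytosol and nucleus, and 8 of these enzymes were followed across 32 mouse hearts. They were chosen as pathway members by gene symbol, 8 of the 19505 genes measured, and each was represented by a single probe set. The mitochondrial set comprised Shmt2, Mthfd2, Mthfd1l and Aldh1l2. The cytosolic or nuclear set comprised Shmt1, Mthfd1, Aldh1l1 and Tyms. In the pathway, serine donates a carbon to tetrahydrofolate, the carbon is oxidised to formyl-tetrahydrofolate, and mitochondria release it as formate, which the cytosolic enzymes take up for purine, thymidylate and methionine synthesis. In normal adult heart the mitochondrial dehydrogenase Mthfd2 is known for low expression, and in several mitochondrial myopathies Mthfd2, Shmt2 and Aldh1l2 are known as targets of the integrated stress response transcription factor ATF4.

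The arrays came from whole hearts of mice with a heterozygous knock-in mutation of the mitochondrial protein CHCHD10 (C10), G58R or S59L, or with wild-type C10 (WT). Hearts in the G58R cohort were taken at 14 weeks and those in the S59L cohort at 20 weeks, and each cohort had its own WT hearts. OMA1, a stress-activated protease of the inner mitochondrial membrane, was either absent (OMA1-/-) or present on a single allele (OMA1+/-), so that no heart carried both normal OMA1 alleles. The 8 groups were G58R OMA1-/-, G58R OMA1+/-, WT OMA1-/- and WT OMA1+/- at 14 weeks, and S59L OMA1-/-, S59L OMA1+/-, WT OMA1-/- and WT OMA1+/- at 20 weeks, with 4 hearts each. According to the study, most pups with G58R that lacked OMA1 died as neonates, so the G58R OMA1-/- hearts came from survivors. The G58R line was made by genome editing in C57Bl6J mice. Mutation, age and cohort cannot be told apart when G58R is set against S59L.

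Values are log2 expression on the scale of the deposited table, in which 1 unit is a 2-fold difference. The background was set at 6.59, the 0.95 quantile of mean levels over 1412 receptor genes of the olfactory and vomeronasal epithelium. A probe set below this level on all 4 arrays of a group gave only a bound there. Array medians lay between 6.54 and 6.75. Cardiomyocyte markers (Myh6, Tnnt2 and 4 others) averaged 17.58 to 18.49 on every array. At 20 weeks these means were 17.58 to 18 in S59L hearts and 18.13 to 18.49 in WT hearts. Against WT, 3 of the 6 were called lower in G58R OMA1-/- hearts, where 15.3% of all genes were. The same count was 3 in S59L OMA1-/- hearts (14% of all genes), 2 in S59L OMA1+/- hearts (17.9%) and 0 in G58R OMA1+/- hearts (0.472%). The part of cardiomyocyte RNA in the enzyme values was not tested. Oma1 itself read 9.83 to 10.14 in G58R OMA1-/- hearts against 10.28 to 10.64 in G58R OMA1+/- hearts, and 8.93 to 9.68 in S59L OMA1-/- hearts against 9.36 to 10.26 in S59L OMA1+/- hearts. The sources used here do not place these probes inside or outside the knockout deletion, so the values do not check the genotype. Arrays differed in adipocyte RNA: the mean of 6 adipocyte markers exceeded 9 on 7 arrays, among them 3 of the 4 WT OMA1+/- arrays at 14 weeks and 2 of the 4 S59L OMA1-/- arrays. On 1 WT OMA1+/- array at 20 weeks the mean of 4 hepatocyte markers was 10.82, against 4.64 to 5.77 elsewhere. In S59L OMA1-/- hearts, array 2 stood apart from the other 3 in several of the enzymes. Some of the results that rest on these arrays are given with and without them. Macrophage marker means (5 genes) were 10.57 to 11.32 in G58R OMA1-/-, 9.86 to 10.66 in G58R OMA1+/-, 10.36 to 12.49 in S59L OMA1-/- and 11.80 to 12.60 in S59L OMA1+/- hearts, against 8.38 to 10.96 in WT hearts. Endothelial marker means (5 genes) were 11.73 to 13.31 in the mutant hearts and 13.00 to 13.89 in WT hearts. Against WT, 5 of the 5 were called lower in G58R OMA1-/- hearts (15.3% of all genes) and in S59L OMA1+/- hearts (17.9%). The count was 3 in S59L OMA1-/- hearts (14%) and 0 in G58R OMA1+/- hearts (0.472%). The part of macrophages and endothelial cells in the mutant changes was not tested. In whole hearts, fewer cells of a type and less RNA per cell cannot be told apart.

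Promoter sequences are shown for Mthfd2, for Shmt2 and for its cytosolic counterpart Shmt1, because these 3 genes carried the main patterns in the values. The windows span 250 bases before and 50 bases after the transcript start in RefSeq (GRCm38.p6) and are printed 5′ to 3′ on the gene's strand, with CCAAT or its reverse complement in capitals. They lie at chr6:83317555-83317854 on the minus strand, chr10:127522395-127522694 on the minus strand and chr11:60811216-60811515 on the minus strand.
Mthfd2: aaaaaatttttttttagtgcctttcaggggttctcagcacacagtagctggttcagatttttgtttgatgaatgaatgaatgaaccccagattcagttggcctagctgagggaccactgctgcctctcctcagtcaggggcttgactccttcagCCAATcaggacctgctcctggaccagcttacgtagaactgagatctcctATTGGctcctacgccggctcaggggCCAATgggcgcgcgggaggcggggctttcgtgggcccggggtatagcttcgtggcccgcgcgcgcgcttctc
Shmt2: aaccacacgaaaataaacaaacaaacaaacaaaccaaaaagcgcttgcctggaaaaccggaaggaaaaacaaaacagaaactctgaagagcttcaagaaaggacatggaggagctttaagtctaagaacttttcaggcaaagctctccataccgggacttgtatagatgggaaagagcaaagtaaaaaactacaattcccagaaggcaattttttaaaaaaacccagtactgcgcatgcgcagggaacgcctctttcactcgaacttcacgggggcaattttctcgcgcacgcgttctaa
Shmt1: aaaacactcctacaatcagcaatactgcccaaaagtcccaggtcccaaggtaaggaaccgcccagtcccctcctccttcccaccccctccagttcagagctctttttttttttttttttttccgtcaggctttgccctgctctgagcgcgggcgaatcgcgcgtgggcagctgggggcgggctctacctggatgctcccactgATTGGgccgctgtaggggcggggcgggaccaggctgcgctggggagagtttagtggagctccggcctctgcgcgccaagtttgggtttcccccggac

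RefSeq promoters were matched for 7 of the 8 enzymes, with Aldh1l2 unmatched. On both strands, 3 motifs were searched: TGATGNAA (the core of the joint ATF4 and C/EBP element), CCAAT (the NF-Y box) and CACGTG (an E-box). TGATGNAA matched none of the 7 windows and was present in 3.97% of all 32851 promoter windows of that length. CCAAT matched 3 times in the Mthfd2 window, with its first bases 96, 47 and 22 bases before the start, and 3.37% of all windows held at least 3 matches. The Shmt1 window held a single CCAAT match, 47 bases before the start, as did 37.4% of all windows at least once, and the Shmt2 window held none. CACGTG was found in the Tyms window alone among the 7, against 7.15% of all windows. These matches describe the letters of the windows and are not binding sites.

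The first question was what each C10 mutation did to the mitochondrial enzymes in OMA1+/- hearts, in which OMA1 could still respond. Mthfd2, the mitochondrial methylene-tetrahydrofolate dehydrogenase and cyclohydrolase, changed more than any other member. In G58R OMA1+/- hearts it read 13.92, 14.22, 14.64 and 14.11, against 7.23, 9.25, 6.54 and 6.87 in WT OMA1+/- hearts. The groups were more than 4 log2 units apart at their nearest points, and 1 of the 4 WT arrays was below background. The change was +6.75 ± 0.50 (log2, SE, n = 4 against 4; limma adjusted p = 3.76e-07), or 107-fold. S59L OMA1+/- hearts read 14.45, 14.76, 15.51 and 15.20, against 7.97, 7.43, 6.55 and 8.29 in WT OMA1+/- hearts at 20 weeks. Here too no values overlapped, and the change was +7.42 ± 0.51 (adjusted p = 4.4e-08), or 171-fold. The 2 effects differed by -0.67 ± 0.77 (G58R minus S59L, adjusted p = 0.652).

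**Figure D1:**
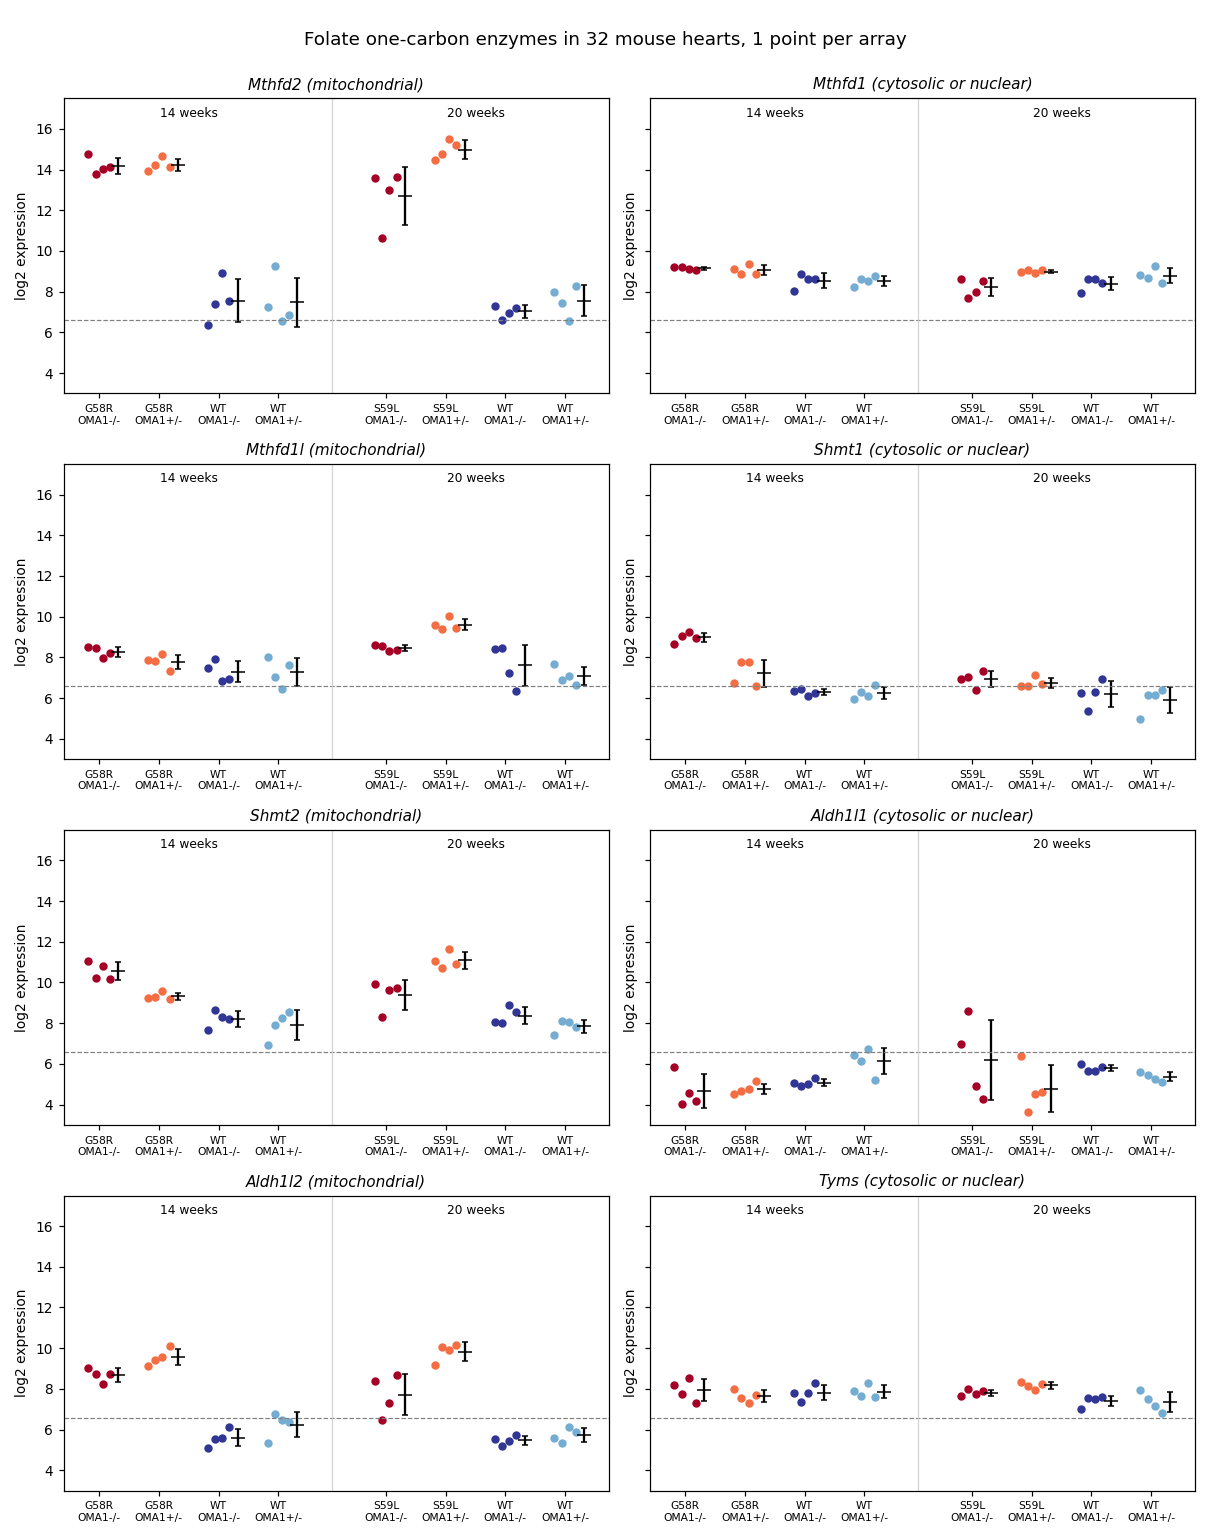
Log2 expression of the 4 mitochondrial enzymes (left) and the 4 cytosolic or nuclear enzymes (right) on each of the 32 arrays, by group, with the mean and SD beside the points and the background of 6.59 as a dashed line. Mthfd2 lay between 10.64 and 15.51 on all mutant arrays and between 6.36 and 9.25 on all WT arrays, while Mthfd1 and Tyms stayed within a narrow band.

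Aldh1l2, which oxidises formyl-tetrahydrofolate in mitochondria and yields NADPH, was barely detected in WT hearts. It read 9.12, 9.44, 9.56 and 10.10 in G58R OMA1+/- hearts, against 5.35, 6.77, 6.48 and 6.37 in WT OMA1+/- hearts, where 3 of 4 arrays were below background. The groups did not overlap (+3.32 ± 0.29, adjusted p = 3.41e-06). In S59L OMA1+/- hearts it read 9.16, 10.06, 9.89 and 10.18, against 5.60, 5.35, 6.14 and 5.88 in WT hearts. Since all 4 of these WT arrays were below background, the rise is a bound of at least 3.23 log2 units, or at least 9.41-fold (adjusted p = 4.67e-07).

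Shmt2, which makes glycine and methylene-tetrahydrofolate from serine in mitochondria, and Mthfd1l, the synthetase whose reverse reaction releases formate, stood further above WT in the S59L than in the G58R cohort. Shmt2 read 9.23, 9.29, 9.58 and 9.19 in G58R OMA1+/- hearts, against 6.91, 7.93, 8.23 and 8.57 in WT hearts, and rose by 1.41 ± 0.31 (adjusted p = 0.0218). In S59L OMA1+/- hearts it read 11.04, 10.69, 11.66 and 10.91, against 7.40, 8.11, 8.05 and 7.81 in WT hearts, and rose by 3.23 ± 0.32 (adjusted p = 1.14e-06). Both pairs of groups were free of overlap, and the WT values of the cohorts covered much the same range. Mthfd1l read 7.88, 7.8, 8.15 and 7.33 in G58R OMA1+/- hearts and 8.01, 7.04, 6.43 and 7.62 in WT hearts, which overlapped (+0.52 ± 0.30, adjusted p = 0.388). In S59L OMA1+/- hearts Mthfd1l read 9.58, 9.40, 10.03 and 9.46, against 7.70, 6.87, 7.10 and 6.65 in WT hearts (+2.53 ± 0.36, adjusted p = 4.59e-05), with no overlap. The difference between the effects was itself past the test for both genes, at -2.02 ± 0.49 for Mthfd1l (G58R minus S59L, adjusted p = 0.00892) and -1.82 ± 0.46 for Shmt2 (adjusted p = 0.0113). In that contrast 5.3% of all genes were called in that direction, and no cytosolic enzyme was, Tyms being nearest at -1.02 ± 0.35 (adjusted p = 0.0635). Tyms passed with sex as a covariate (0.0378), with array weights (0.0299), among genes above background (0.0422) and without 5 of the 32 arrays in turn.

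The Shmt2 rise in G58R OMA1+/- hearts was close to the threshold. Its call was lost without WT OMA1+/- array 1 (1.08), or without G58R OMA1+/- array 2 (1.42) or 3 (1.33). With the 7 arrays rich in adipocyte markers left out, which left 1 WT OMA1+/- array, it was 0.75 (adjusted p = 0.178), and with adipocyte markers as a covariate it was 1.29 (adjusted p = 0.0589), whereas Mthfd2 at +7.35 (adjusted p = 1.54e-05) and Aldh1l2 at +3.19 (adjusted p = 0.000336) passed without those arrays. Without them, the Mthfd1l difference between cohorts was -2.37 (adjusted p = 0.0569) and that of Shmt2 was -2.50 (adjusted p = 0.00483). The part of adipocyte RNA in these values was not tested further.

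Of the cytosolic and nuclear enzymes, Tyms was called higher in S59L OMA1+/- hearts and none was in G58R OMA1+/- hearts. Shmt1 was close to the threshold in both. Mthfd1, the trifunctional enzyme that takes up formate in the cytosol, spanned 8.87 to 9.37 in G58R hearts against 8.21 to 8.78 in WT hearts (+0.52 ± 0.20, adjusted p = 0.179), and 8.90 to 9.05 in S59L hearts against 8.41 to 9.24 in WT hearts (+0.21 ± 0.23, adjusted p = 0.495). Although the G58R and WT values of Mthfd1 did not overlap, the change missed the threshold. Shmt1, the cytosolic counterpart of Shmt2, read 6.72, 7.79, 7.79 and 6.59 in G58R OMA1+/- hearts and 5.94, 6.31, 6.11 and 6.63 in WT OMA1+/- hearts, of which 3 were below background (+0.97 ± 0.26, adjusted p = 0.0602). This change passed after quantile normalization (adjusted p = 0.0481), with sex as a covariate (0.047) and among genes above background (0.0452). In S59L OMA1+/- hearts it read 6.62, 6.59, 7.13 and 6.70 against 4.95, 6.15, 6.13 and 6.42 in WT hearts, and the bound was only 0.17 (adjusted p = 0.0535). The S59L change passed after quantile normalization (adjusted p = 0.0345), in a fit of all 32 arrays (0.0295) and of the compared groups alone (0.0329). It also passed with the replicate number as a covariate (0.0436), in the robust fit (0.0498) and with array weights (0.0375). Tyms, which makes thymidylate and is used in dividing cells and in the nucleus, overlapped between G58R and WT (-0.20 ± 0.26, adjusted p = 0.724). It rose by 0.81 ± 0.22 in S59L OMA1+/- hearts (adjusted p = 0.00821), which read 8.35, 8.16, 7.95 and 8.25, against 7.93, 7.52, 7.16 and 6.84 in WT hearts. The mean of 7 markers of proliferating cells spanned 5.74 to 6.36 in S59L OMA1+/- hearts and 5.71 to 5.97 in WT hearts, and none of the 7 passed the test. In each of these groups 5 of the 7 were below background on all 4 arrays, so a change in them could hardly be seen. The part of dividing cells in the Tyms rise was not tested.

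Over the set, 3 of 4 mitochondrial enzymes were higher in G58R OMA1+/- hearts, where 1.51% of all 19505 genes were higher, and 0 of 4 cytosolic enzymes were. Aldh1l1 was called lower there (adjusted p = 0.0456), as were 0.472% of all genes, but at 4.53 to 5.14 in G58R hearts and 5.23 to 6.75 in WT hearts both means were below background, no fold is given, and the call was lost without 12 of the 16 arrays in turn and without the arrays rich in adipocyte markers. All 4 G58R values lay above all 4 WT values for 4 of the 8 enzymes, as for 4.56% of all genes. In S59L OMA1+/- hearts, 4 of 4 mitochondrial enzymes and 1 of 4 cytosolic enzymes were higher, where 18.6% of all genes were. All 4 S59L values lay above all 4 WT values for 6 enzymes, as for 19.5% of all genes. The median change in G58R hearts was 2.36 over the mitochondrial set and 0.52 over the 3 cytosolic enzymes other than Aldh1l1, beside -0.03 over all genes. In S59L hearts, with the bounds of Aldh1l2 and Shmt1 in place of folds, the same medians were 3.23 and 0.21, beside -0.15 over all genes. Groups of 4 mitochondrial and 4 cytosolic genes were set side by side without a test of the sets.

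The second question was whether these changes held when OMA1 was absent. Mthfd2 read 14.74, 13.79, 14.03 and 14.12 in G58R OMA1-/- hearts, against 6.36, 7.39, 8.93 and 7.52 in WT OMA1-/- hearts, and no values overlapped. The change was +6.62 ± 0.50 (adjusted p = 4.27e-08), or 98.7-fold. In S59L OMA1-/- hearts it read 13.58, 10.64, 12.97 and 13.63, against 7.31, 6.62, 6.96 and 7.21 in WT OMA1-/- hearts (+5.68 ± 0.51, adjusted p = 1.43e-06). Array 2 of the S59L OMA1-/- group, at 10.64, was still above every WT array.

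Shmt2 read 11.05, 10.21, 10.83 and 10.18 in G58R OMA1-/- hearts, against 7.64, 8.63, 8.30 and 8.22 in WT OMA1-/- hearts (+2.37 ± 0.31, adjusted p = 1.82e-05). The groups did not overlap. In S59L OMA1-/- hearts Shmt2 read 9.90, 8.30, 9.64 and 9.71, against 8.05, 8.0, 8.87 and 8.57 in WT OMA1-/- hearts, and array 2 fell within the WT range (+1.01 ± 0.32, adjusted p = 0.0248). Without that array the change was +1.38 (adjusted p = 0.000946), and without the arrays rich in adipocyte markers it was +1.3 (adjusted p = 0.0054). The call was lost without S59L OMA1-/- array 1, 3 or 4 or WT OMA1-/- array 1 or 2 (0.84 to 0.93). Mthfd1l read 8.51, 8.44, 7.98 and 8.20 in G58R OMA1-/- hearts, against 7.47, 7.93, 6.83 and 6.94 in WT OMA1-/- hearts (+0.99 ± 0.30, adjusted p = 0.0179), without overlap. The call was lost when WT OMA1-/- array 3 (change 0.84) or array 4 (0.88) or G58R OMA1-/- array 1 (0.92) was left out. Mthfd1l in S59L OMA1-/- hearts spanned 8.33 to 8.60, which overlapped the WT OMA1-/- range of 6.36 to 8.44 (+0.85 ± 0.36, adjusted p = 0.0838). Aldh1l2 read 9.05, 8.71, 8.25 and 8.74 in G58R OMA1-/- hearts against 5.12 to 6.12 in WT OMA1-/- hearts, all below background, a rise of at least 2.10 (adjusted p = 6.81e-07). The S59L OMA1-/- hearts read 8.39, 6.49, 7.33 and 8.66 against 5.21 to 5.74, a rise of at least 1.13 (adjusted p = 0.000291).

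Shmt1 was the cytosolic enzyme that rose most. It read 8.68, 9.03, 9.26 and 8.93 in G58R OMA1-/- hearts, against 6.35, 6.45, 6.09 and 6.27 in WT OMA1-/- hearts. All 4 WT arrays were below background, so the rise was at least 2.39 log2 units, or at least 5.23-fold (adjusted p = 9.09e-07). In S59L OMA1-/- hearts it read 6.93, 7.05, 6.40 and 7.35, against 6.23, 5.38, 6.28 and 6.96 in WT OMA1-/- hearts, with overlap (+0.72 ± 0.33, adjusted p = 0.107). The fitted G58R effect exceeded the S59L effect on the OMA1-/- background by 1.96 ± 0.44 (adjusted p = 0.0196), and 0.728% of all genes were called in that direction. Because the WT OMA1-/- values at 14 weeks lay below background, this fitted difference is neither a measured change nor a bound. The call was lost without WT OMA1-/- array 4 (1.71) or S59L OMA1-/- array 3 (1.78) of the 20-week cohort, and held without the arrays rich in adipocyte markers (2.12, adjusted p = 0.037).

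Mthfd1 spanned 9.04 to 9.21 in G58R OMA1-/- hearts and 8.03 to 8.89 in WT OMA1-/- hearts, a small rise of 0.61 ± 0.20 (adjusted p = 0.0254) that missed the threshold after quantile normalization (0.54, adjusted p = 0.0514), without the arrays rich in adipocyte markers (0.59, adjusted p = 0.052), and without WT OMA1-/- array 1 (0.44) or G58R OMA1-/- array 1 or 2 (0.59 for each). The S59L OMA1-/- hearts spanned 7.71 to 8.63, against 7.94 to 8.62 in WT hearts (-0.18 ± 0.23, adjusted p = 0.587). Tyms did not pass on the OMA1-/- background, at +0.13 ± 0.26 for G58R (adjusted p = 0.722) and +0.39 ± 0.22 for S59L (adjusted p = 0.184). On this background 4 of 4 mitochondrial and 2 of 4 cytosolic enzymes were higher in G58R hearts, where 18.3% of all genes were higher. In S59L hearts 3 of 4 mitochondrial and 0 of 4 cytosolic enzymes were higher, where 15.8% of all genes were. All 4 mutant values lay above all 4 WT values for 6 enzymes with G58R, as for 19.8% of all genes, and for 3 with S59L (Mthfd2, Aldh1l2 and Tyms), as for 13.3% of all genes. With bounds used where only a bound is known, the medians over the 4 mitochondrial and the 3 cytosolic enzymes other than Aldh1l1 were 2.24 and 0.61 in G58R hearts and 1.07 and 0.39 in S59L hearts, beside -0.10 over all genes in each.

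**Figure D2:**
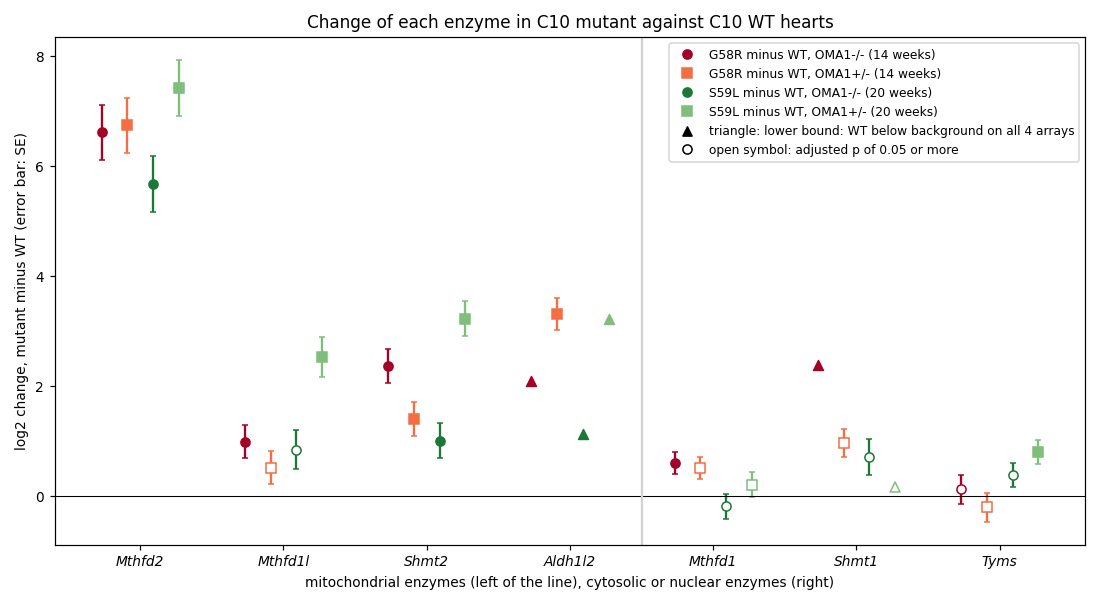
Log2 change of each enzyme, mutant minus WT, with its SE, for G58R and S59L on each OMA1 background. Triangles are lower bounds where WT was below background on all 4 arrays, open symbols did not pass the test, and Aldh1l1 is left out because its means were below background. Mthfd2 rose by 5.68 to 7.42 in all 4 comparisons, and Shmt1 rose by at least 2.39 in G58R OMA1-/- hearts.

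The third question was what the absence of OMA1 did within mutant hearts, and here the cohorts differed for some of the enzymes. These comparisons reuse the mutant hearts of the earlier ones and are not independent of them. In S59L hearts 3 of the 4 mitochondrial enzymes were lower without OMA1. Mthfd2 averaged 12.70 ± 1.41 in S59L OMA1-/- hearts and 14.98 ± 0.47 in S59L OMA1+/- hearts (SD, n = 4 each) and fell by 2.28 on the log2 scale (SE 0.51, adjusted p = 0.0451). Shmt2 averaged 9.39 ± 0.73 and 11.08 ± 0.42 in the same groups and fell by 1.69 (SE 0.32, adjusted p = 0.0195). Aldh1l2 averaged 7.72 ± 1.0 in S59L OMA1-/- hearts and 9.82 ± 0.46 in S59L OMA1+/- hearts and fell by 2.11 (SE 0.37, adjusted p = 0.0106). None of these 3 genes overlapped between the groups. Mthfd1l, at 8.33 to 8.60 in S59L OMA1-/- hearts against 9.40 to 10.03 in S59L OMA1+/- hearts, did not overlap either, but its change of -1.16 ± 0.36 missed the threshold (adjusted p = 0.177), as did Mthfd1 at -0.78 ± 0.23 (adjusted p = 0.153). Shmt1 (+0.17 ± 0.33, adjusted p = 0.943) and Tyms (-0.37 ± 0.22, adjusted p = 0.631) overlapped.

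In this comparison 3 of 4 mitochondrial and 0 of 4 cytosolic enzymes were lower, where 0.625% of all genes were lower. All 4 OMA1-/- values lay below all 4 OMA1+/- values for 5 of the 8 enzymes, as for 3.2% of all genes. The medians were -1.90 over the mitochondrial set and -0.37 over the 3 cytosolic enzymes other than Aldh1l1, beside 0 over all genes. These calls were close to the threshold: in a fit of the S59L groups alone no member passed (Mthfd2 adjusted p = 0.263, Shmt2 0.17, Aldh1l2 0.173), 0 members passed without S59L OMA1+/- array 4, and 1 passed without array 3. The Mthfd2 call held only without WT OMA1+/- array 3 or S59L OMA1-/- array 1, 2 or 4 among the 16 arrays left out in turn (-2.58 to -1.59). The array that stood apart, S59L OMA1-/- array 2, had the lowest values of its group for Mthfd2, Shmt2, Aldh1l2 and Mthfd1, an adipocyte marker mean of 13.90 against 7.71 to 12.47 on the other 3 arrays, and a lymphocyte marker mean of 8.40 against 4.41 to 5.08. Without it, Mthfd2 fell by 1.59 (adjusted p = 0.0489), Shmt2 by 1.32 (adjusted p = 0.031) and Aldh1l2 by 1.70 (adjusted p = 0.0148), so the calls held with smaller changes. Without the arrays rich in adipocyte markers, the changes were -1.86 (adjusted p = 0.0267), -1.41 (adjusted p = 0.039) and -2.05 (adjusted p = 0.00385) in the same order. Without the array rich in hepatocyte markers, the Mthfd2 call was lost (adjusted p = 0.0625). Those of Shmt2 (adjusted p = 0.0278) and Aldh1l2 (adjusted p = 0.0157) held. Of the 5 macrophage markers 1 was lower in S59L OMA1-/- than in S59L OMA1+/- hearts, and their part in the result was not tested.

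In G58R hearts the same comparison gave other calls, with Shmt2 and Shmt1 higher and no enzyme called lower. Mthfd2 averaged 14.17 ± 0.41 in G58R OMA1-/- hearts and 14.22 ± 0.30 in G58R OMA1+/- hearts, and the groups overlapped (-0.05 ± 0.50, adjusted p = 0.982). Shmt2 averaged 10.57 ± 0.44 in G58R OMA1-/- hearts and 9.32 ± 0.17 in G58R OMA1+/- hearts, without overlap, and rose by 1.25 ± 0.31 (adjusted p = 0.024). Shmt1 averaged 8.98 ± 0.24 and 7.22 ± 0.66 in these groups and rose by 1.75 ± 0.26 (adjusted p = 0.000474), also without overlap. Aldh1l2 did not overlap either, at 8.25 to 9.05 in G58R OMA1-/- hearts against 9.12 to 10.10 in G58R OMA1+/- hearts, but its change of -0.87 ± 0.29 missed the threshold (adjusted p = 0.117). Mthfd1l (+0.49 ± 0.30, adjusted p = 0.485), Mthfd1 (+0.09 ± 0.20, adjusted p = 0.904) and Tyms (+0.30 ± 0.26, adjusted p = 0.663) overlapped. Thus 1 of 4 mitochondrial and 1 of 4 cytosolic enzymes were higher, where 3.25% of all genes were higher. All 4 OMA1-/- values lay above all 4 OMA1+/- values for these 2 enzymes, as for 6.5% of all genes, and below them for Aldh1l2, as for 4.47%. The Shmt2 call was lost when G58R OMA1+/- array 1 or 4, or G58R OMA1-/- array 1 or 3, was left out (1.08 to 1.21), and the Shmt1 call held without each of the 16 arrays in turn (1.54 to 1.94).

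**Figure D3:**
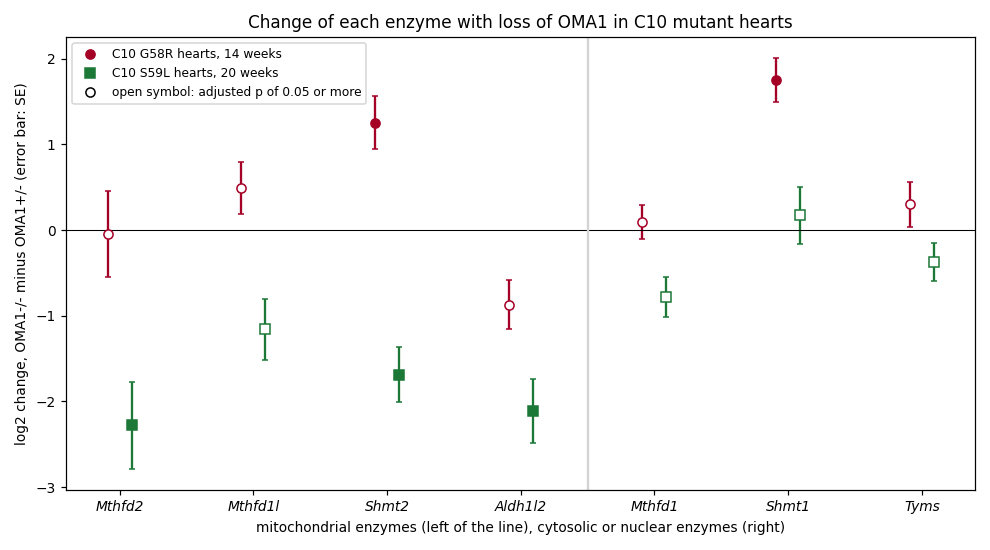
Log2 change of each enzyme, OMA1-/- minus OMA1+/-, with its SE, in G58R hearts (circles) and S59L hearts (squares), with open symbols where the adjusted p was 0.05 or more. Shmt2 lay at +1.25 in G58R and -1.69 in S59L hearts, and Shmt1 was the highest point at +1.75 in G58R hearts.

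The difference between the OMA1 effects was tested over all 32 arrays. For Shmt2 the effect in G58R minus that in S59L hearts was +2.93 ± 0.46 (adjusted p = 0.000114), a difference of 7.63-fold. It was +1.65 ± 0.49 for Mthfd1l (adjusted p = 0.0466) and +1.58 ± 0.44 for Shmt1 (adjusted p = 0.0286), and 3.66% of all genes were called in that direction. Mthfd2 at +2.23 ± 0.77 (adjusted p = 0.0987), Aldh1l2 at +1.24 ± 0.49 (adjusted p = 0.172), Mthfd1 at +0.86 ± 0.30 (adjusted p = 0.102) and Tyms at +0.67 ± 0.35 (adjusted p = 0.351) did not pass. The Shmt2 difference held without the 7 arrays rich in adipocyte markers (2.50, adjusted p = 0.000634), without S59L OMA1-/- array 2 (2.57, adjusted p = 0.000242) and without each of the 32 arrays in turn (2.57 to 3.10). The other calls were weaker. Mthfd1l missed the threshold when any of 19 of the 32 arrays was left out (1.5 to 1.72), and Shmt1 without 5 of them, namely G58R OMA1+/- array 1 or 4, G58R OMA1-/- array 3, S59L OMA1+/- array 3 or S59L OMA1-/- array 3 (1.37 to 1.48). Without the arrays rich in adipocyte markers the adjusted p was 0.127 for Mthfd1l and 0.0839 for Shmt1.

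Within a cohort, the interaction of mutation and OMA1 was past the test for Shmt1 alone among the members with G58R (+1.71 ± 0.37, adjusted p = 0.0172), where 2.24% of all genes were called in that direction. With WT below background on 7 of 8 arrays, this fitted value is neither a measured change nor a bound, and without the arrays rich in adipocyte markers it was 2.19 (adjusted p = 0.0995). With S59L no member passed, as 0.0718% of all genes did, although Shmt2 (-2.22 ± 0.45, adjusted p = 0.0735) was nearest to the threshold.

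In WT hearts OMA1 made no detectable difference to the set. No member passed between WT OMA1-/- and WT OMA1+/- hearts, whether at 14 weeks, where 0% of all genes passed, or at 20 weeks, where 0.00513% did. By limma, 2276 genes at 14 weeks and 1113 at 20 weeks had an unadjusted p under 0.05, and 0 and 1 passed after adjustment. Among the 5 members measured above background in mean, the changes were -0.04 to 0.29 at 14 weeks and -0.53 to 0.53 at 20 weeks.

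Aldh1l1, the cytosolic formyl-tetrahydrofolate dehydrogenase known for its abundance in liver and astrocytes, was below background on 29 of 32 arrays. The 3 arrays above background were S59L OMA1-/- arrays 1 and 2, at 6.99 and 8.60, and WT OMA1+/- array 3 at 14 weeks, at 6.75. All 3 were among the 7 arrays rich in adipocyte markers, with adipocyte marker means of 12.47, 13.90 and 11.82. On the other 4 of these 7 arrays Aldh1l1 read 6.46, 6.13, 5.85 and 6.39, and on the remaining 25 arrays it lay between 3.66 and 5.99. Adipocyte markers spanned 6.53 to 8.80 on those 25 arrays. Aldh1l1 expression in cells of the heart was thus not measured apart from adipocyte RNA, whose part was not tested.

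**Figure D4:**
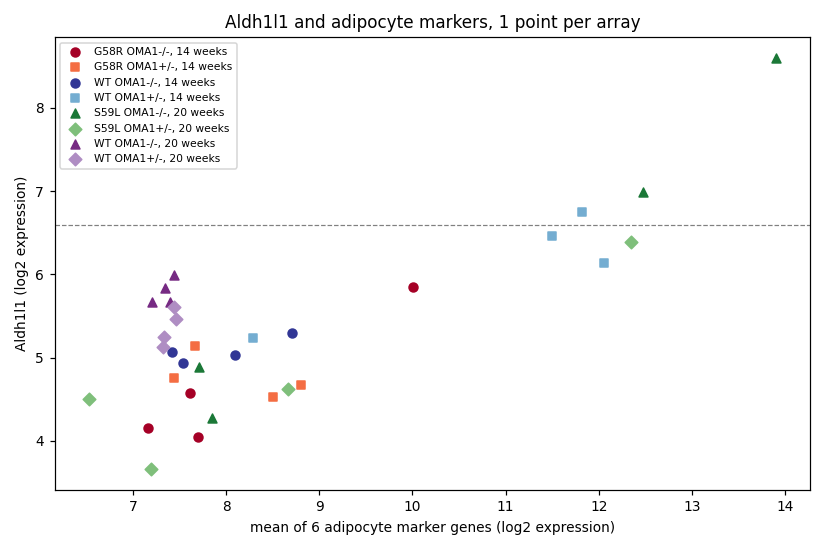
Log2 expression of Aldh1l1 against the mean of 6 adipocyte markers on each of the 32 arrays, by group, with the background of 6.59 as a dashed line. The 3 arrays above background had adipocyte marker means of 11.82 to 13.90, and the 25 arrays with adipocyte means up to 8.80 had Aldh1l1 between 3.66 and 5.99.

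To set each mitochondrial enzyme against its cytosolic counterpart on the same array, the difference of their log2 values was compared between groups. The difference itself is not a ratio of amounts, because probe sets differ in response, but its change between groups can be compared where both probe sets are above background. Mthfd2 over Mthfd1 was higher on all 4 mutant arrays than on all 4 WT arrays in each of the 4 mutant comparisons, by 6.02 in G58R OMA1-/- hearts, 6.22 in G58R OMA1+/- hearts, 5.86 in S59L OMA1-/- hearts and 7.21 in S59L OMA1+/- hearts. In all of these but the S59L OMA1-/- comparison, Mthfd2 was below background on 1 of 4 WT arrays. Those values do not meet the condition and only describe the arrays. Mthfd1l over Mthfd1 was higher by 2.33 in S59L OMA1+/- hearts than in WT hearts, without overlap. It changed by 1.03 in S59L OMA1-/- hearts (exact permutation p = 0.2), by 0.39 in G58R OMA1-/- hearts (exact permutation p = 0.314) and by -0.01 in G58R OMA1+/- hearts (exact permutation p = 0.943), with overlap in each. Mthfd1l was below background on 1 of 4 WT arrays in the S59L OMA1-/- and G58R OMA1+/- comparisons. Their values do not meet the condition either. With Shmt1 at or below background on most WT arrays, Shmt2 over Shmt1 is given within mutant hearts only. It changed by -0.51 in G58R hearts (exact permutation p = 0.2). In S59L hearts it was lower by 1.86 with OMA1-/- than with OMA1+/-, without overlap. Shmt1 was below background on 1 of 4 arrays in each S59L group, so the S59L value does not meet this condition and only describes the arrays. Aldh1l2 over Aldh1l1 is not given because Aldh1l1 was below background. Two-sided exact permutation tests of 4 against 4 arrays cannot give less than 0.0286, and after Benjamini-Hochberg adjustment over the 24 ratio tests the smallest value was 0.0623, so none passed.

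Of the other genes of one-carbon metabolism and its neighbours, 38 of 43 listed were measured. Of these, in G58R OMA1+/- hearts, 5 were higher (Psat1, Phgdh, Dctd, Adsl and Mthfd2l), where 1.51% of all genes were higher, 1 was lower with both means below background, and the median change was 0.23. In G58R OMA1-/- hearts 14 were higher and 4 lower, and 3 of the lower had both means below background, while 18.3% of all genes were higher and 15.3% lower. In S59L OMA1+/- hearts 14 were higher and 3 lower, and 2 in each direction had both means below background, while 18.6% of all genes were higher and 17.9% lower. In S59L OMA1-/- hearts 8 were higher and 2 lower, both of the lower below background, while 15.8% of all genes were higher and 14% lower. With OMA1 absent, 3 were higher and 1 lower in G58R hearts, where 3.25% of all genes were higher and 1.24% lower. In S59L hearts 0 were higher and 4 lower, where 0.625% of all genes were lower.

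Serine synthesis supplies the substrate of Shmt2, and 2 of its 3 enzymes rose in all 4 mutant comparisons. Psat1, the phosphoserine aminotransferase, rose by 5.45 ± 0.43 in G58R OMA1-/- hearts (adjusted p = 7.14e-08), by 3.17 ± 0.43 in G58R OMA1+/- hearts (adjusted p = 0.000471), by 4.64 ± 0.57 in S59L OMA1-/- hearts (adjusted p = 2.06e-05) and by 6.71 ± 0.57 in S59L OMA1+/- hearts (adjusted p = 2.42e-07). Phgdh, which catalyses the first step, rose by 2.95, 2.04, 2.52 and 4.79 in the same groups (largest adjusted p = 0.00128). With OMA1 absent, Psat1 rose by 1.92 ± 0.43 in G58R hearts (adjusted p = 0.0137) and changed by -2.14 ± 0.57 in S59L hearts (adjusted p = 0.096), a difference between cohorts of 4.06 ± 0.76 (adjusted p = 0.000864). Phgdh fell by 2.06 in S59L hearts (adjusted p = 0.000496). Psph, the last enzyme of the route, was lower by 0.75 in G58R OMA1-/- hearts (-0.75 ± 0.26, adjusted p = 0.0325) and passed in no other mutant comparison.

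Purine synthesis consumes formyl-tetrahydrofolate at the steps of Gart and Atic. Atic rose by 1.64 ± 0.24 in G58R OMA1-/- hearts (adjusted p = 5.93e-05), by 0.93 ± 0.23 in S59L OMA1-/- hearts (adjusted p = 0.00618) and by 2.06 ± 0.23 in S59L OMA1+/- hearts (adjusted p = 3.92e-06). Gart rose in the same 3 comparisons, by 1.95, 0.79 and 1.63 (largest adjusted p = 0.0456). The deoxycytidylate deaminase Dctd, which supplies the substrate of Tyms, fell by 1.83 in S59L hearts (adjusted p = 0.000765) and rose by 1.82 ± 0.31 in G58R hearts (adjusted p = 0.00173) when OMA1 was absent, and the difference of 3.65 ± 0.41 passed (adjusted p = 1.14e-06). Folr2, a folate receptor of macrophages, rose by 2.12 ± 0.30 in S59L OMA1+/- hearts (adjusted p = 4.6e-05). There all 5 macrophage markers were also higher (median change 3.12), as were 18.6% of all genes. Folr2 fell by 1.69 in S59L hearts without OMA1 (adjusted p = 0.0124), a comparison in which 1 of the 5 macrophage markers was also lower. The part of macrophages in both changes was not tested. Mthfd2l, the relative of Mthfd2 that adult tissues express, rose by 0.89 ± 0.22 in G58R OMA1+/- hearts (adjusted p = 0.0446) and fell by 0.96 in G58R hearts without OMA1 (adjusted p = 0.0165). Of 4 glycine cleavage genes measured, 0 were called higher in any mutant comparison, where 1.51% to 18.6% of all genes were, so 0 of 4 is near the share. In G58R OMA1-/- hearts 1 was called lower, Gldc, with both means below background, where 15.3% of all genes were lower. Amt was also mostly below background.

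Across the 8 group means, the genes most like Mthfd2 were Eif1ax (Pearson r = 0.9931), Asns (0.9887), Eif3c (0.988), Ostn (0.9867) and Slc7a5 (0.9849), among 6311 genes that varied by at least 1 log2 unit and rose above background in a group. Among the members, the r with Mthfd2 was 0.975 for Aldh1l2, 0.914 for Shmt2, 0.804 for Mthfd1l, 0.713 for Shmt1, 0.614 for Tyms, 0.587 for Mthfd1 and -0.542 for Aldh1l1, which was mostly below background. Those most like Shmt1 were Fam161b (0.9862), Dcbld2 (0.9808), Snapc1 (0.979), Ctsl (0.9741) and Rorb (0.9716). The 8 means share the contrast of mutant with WT hearts, so these values are descriptions. Atf4 averaged 15.09 in G58R OMA1-/-, 14.63 in G58R OMA1+/-, 14.02 in S59L OMA1-/- and 15.76 in S59L OMA1+/- hearts, against 12.04 to 12.69 in the WT groups. Atf5, a related factor, averaged 11.17, 12.44, 9.09 and 11.29 in the same mutant groups and 7.42 to 8.01 in the WT groups.

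The order of the group means differed between the enzymes. Mthfd2 was highest in S59L OMA1+/- hearts (14.98), followed by the G58R groups (14.22 and 14.17), S59L OMA1-/- hearts (12.70) and the 4 WT groups (7.03 to 7.56). For Shmt2 the order was S59L OMA1+/- (11.08), G58R OMA1-/- (10.57), S59L OMA1-/- (9.39), G58R OMA1+/- (9.32) and WT (7.84 to 8.37). Its G58R OMA1-/- range of 10.18 to 11.05 overlapped the S59L OMA1+/- range of 10.69 to 11.66. The S59L OMA1-/- range of 8.30 to 9.90 enclosed that of G58R OMA1+/- hearts. Whether the groups within each of these pairs differed was not tested. Shmt1 was highest in G58R OMA1-/- hearts (8.98), where the lowest array, at 8.68, was above the highest array of any other group, at 7.79. All these orders set levels of separate cohorts side by side. Mutation, age and cohort cannot be told apart in them, and whether the cohorts were normalized together was not stated.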

How the data were processed

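Total RNA of 32 hearts was measured on Clariom S Mouse arrays, 1 heart per array. Per the labels, RNA was extracted with the Direct-zol kit, and the authors made gene-level log2 values with Transcriptome Analysis Console under default settings, and these deposited log2 values were used as given. Whether both cohorts were normalized in a single run was not stated there. Precision rests on 4 arrays per group.

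Groups were taken from the labels. Probe sets (28846) were matched to symbols by the platform annotation, 19572 with 1 symbol and 0 with several, and the probe set with the highest mean was kept for each of 19505 genes. No arrays held identical values. Each of 13 contrasts was fitted with limma 3.58.1 (R 4.3.3; lmFit and eBayes) on the 16 arrays of its cohort, or on all 32 for differences between cohorts, and p-values were adjusted by Benjamini-Hochberg over all genes of each contrast at 0.05. The same fit on simulated arrays was tested for recovery of 200 changed genes.

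The 8 enzymes, the other gene lists and the marker lists were chosen with earlier results of these data known. Named were all 8 enzymes, up to 10 genes of the other lists with the smallest p per contrast, the 5 genes most like Mthfd2 and Shmt1 in group means, and Oma1, Atf4 and Atf5. Psph and Gldc were named after their values were seen. Alternatives were quantile normalization, other sample sets in the fit, sex, adipocyte markers or replicate number as a covariate, robust and weighted fits, a filter at background, averaging of probe sets and leaving out each array. Leaving out arrays rich in adipocyte or hepatocyte markers was chosen after seeing the data. Sexes were balanced in 6 of 8 groups. The others, both at 14 weeks, were G58R OMA1+/- (1 male, 3 females) and WT OMA1-/- (3 males, 1 female).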

Additional observations from a re-analysis of the deposited data

Results flagged for a closer look

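Of 64 sets of 4 values (8 enzymes in 8 groups), 1 held a value far from the other 3. Shmt2 in S59L OMA1-/- hearts read 8.30 on array 2 and 9.64 to 9.90 on the other 3, and the gap was 0.834 of the range, above Dixon's critical value for 4 samples. Chance marks about 1 in 20 such groups.

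Effects that differed between groups by a test of the difference itself were those of Shmt1, Shmt2 and Mthfd1l. The G58R effect on Shmt1 was larger by 1.71 on the OMA1-/- than on the OMA1+/- background, as a fitted value. Between cohorts on the OMA1+/- background, the G58R effect minus the S59L effect was -2.02 for Mthfd1l and -1.82 for Shmt2. On the OMA1-/- background it was 1.96 for Shmt1. The OMA1 effect in G58R minus that in S59L hearts was 1.65 for Mthfd1l, 2.93 for Shmt2 and 1.58 for Shmt1. Mutation, age and cohort cannot be told apart in these differences between cohorts.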

How the results depend on the processing

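The rise of Mthfd2 and Aldh1l2 with either mutation, on either OMA1 background, kept its direction and call under every alternative run, as did the difference of the Shmt2 response to OMA1 loss between G58R and S59L hearts. Calls near the threshold moved. In G58R OMA1+/- hearts the number of enzymes called was 2 when only the compared groups were fitted, with adipocyte markers as a covariate, and without the arrays rich in them, and 2 to 5 when single arrays were left out. In S59L hearts, OMA1-/- against OMA1+/-, it was 0 when only the compared groups were fitted and 0 to 3 when single arrays were left out, while the difference of medians (mitochondrial minus cytosolic) was -1.80 as fitted, -1.32 among genes above background and -2.03 to -1.31 by array left out.

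Differences of medians are over fitted values of all 4 enzymes of each set, some at or below background, and are neither changes nor bounds. Adipocyte markers as a covariate left 0 enzymes called for the interaction of G58R and OMA1, as did leaving out the arrays rich in them (0), and the difference of medians changed sign, at 0.15 and 0.11 against -0.46 in the main analysis. The sign also turned for the G58R minus the S59L effect on OMA1-/-, at -0.05 and -0.23 against 0.63 (0.05 to 0.88 by array left out). On OMA1+/- it was -1.71 and -1.63 against -0.96 (-1.42 among genes above background), and for S59L OMA1-/- against WT it was 1.92 (covariate) against 1.23. Without the same arrays 1 enzyme was called for the G58R minus the S59L effect on OMA1+/-, 1 for the difference of OMA1 effects and 1 for the interaction of S59L and OMA1. That interaction also had 1 called in a fit of all 32 arrays, and the difference of OMA1 effects had 1 after quantile normalization. By array left out, these counts were 0 to 1 for the interaction with S59L and 1 to 4 for the difference of OMA1 effects. They were 1 to 2 for OMA1 loss in G58R hearts, 0 to 1 for OMA1 loss in WT hearts at 14 weeks (1 without WT OMA1+/- array 4), and 0 to 1 for the G58R minus the S59L effect on OMA1-/-.

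Among single enzymes and ratios, changes of sign were seen only for values that passed no test. Tyms in G58R OMA1+/- against WT became 0.22 (covariate) and 0.07 (arrays left out), and its interaction with OMA1 became -0.12 and -0.01. Shmt1 for the G58R minus the S59L effect on OMA1+/- became -0.02 (quantile), -0.02 (covariate) and -0.30 (arrays left out). Mthfd2 for OMA1 loss in G58R hearts became 0.02 with sex as a covariate. With array weights, the Mthfd1 interaction with G58R became -0.01 and the Mthfd1l difference of mutation effects on OMA1-/- became -0.03. The Mthfd1l over Mthfd1 ratio in G58R OMA1+/- hearts became 0.07 after quantile normalization. By single arrays left out, the ranges that crossed 0 were -0.07 to 0.34 for Tyms in G58R OMA1-/-, -0.24 to 0.09 for Mthfd2 with OMA1 loss in G58R, -0.72 to 0.34 (Mthfd2), -0.40 to 0.07 (Aldh1l2) and -0.09 to 0.20 (Mthfd1) for the interaction with G58R, -0.40 to 0.20 for Shmt1 with S59L, -0.06 to 0.45 (Shmt1, OMA1+/-) and -0.13 to 0.56 (Mthfd1l, OMA1-/-) for the difference of mutation effects, -0.28 to 0.34 for the Mthfd1l over Mthfd1 ratio in G58R OMA1+/-, and -0.31 to 0.01 for the Mthfd2 over Mthfd1 ratio with OMA1 loss in G58R. The causes of these shifts were not tested. Quantile normalization moved the median of all genes to 0.06 in G58R OMA1-/- against WT (from -0.10), to -0.03 in S59L OMA1+/- (from -0.15) and to 0.01 in S59L OMA1-/- (from -0.10), and no enzyme that passed changed direction.

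Of the changes of single enzymes in each comparison, apart from single arrays left out, 792 values kept their direction and call, 27 lost the call and 17 gained it, among them Shmt1 in S59L OMA1+/- hearts.

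Replicate numbers were not taken to pair the hearts: deviations of same-numbered arrays correlated between -0.323 and 0.275, and in no comparison were all 4 correlations over 0.1 (nearest, S59L OMA1+/- against WT, 0.04 to 0.182). The fit with the replicate number as a block changed 1 call, that of Shmt1 in S59L OMA1+/- against WT (0.85, adjusted p = 0.0436), and no count by over 1.5 times. In WT hearts, Aldh1l1, Shmt1 and Aldh1l2 lay at or below background on most arrays. For Shmt1 and Aldh1l2, changes against WT are bounds only where all 4 WT arrays were below background. Their other changes against WT are fitted values that rest partly on WT arrays below background.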
